A study of Mus musculus with 2 samples.

Results

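AP-1 is a family of transcription factors built from pairs of Fos and Jun proteins, and 8 of its genes were followed here in mouse embryonic fibroblasts given celastrol or its solvent. They were the Fos family (Fos, Fosb, Fosl1 and Fosl2), the Jun family (Jun, Junb and Jund) and Batf3, a smaller relative that pairs with Jun proteins. A gene was taken when a probe set named it and no other gene, and all 8 had exactly 1 such probe set, out of 19946 genes measured in that way. Embryonic fibroblasts are connective tissue cells grown from embryos, and all cultures of the study had been infected with an adenovirus carrying LacZ, so the control cells carried the virus too. The control culture received DMSO and the treated culture 250 nM celastrol, a plant triterpenoid, each for 7 h in DMEM with 1% FBS. Each condition was measured on 1 whole-transcript array, and the number of arrays limits the precision. The sources used here do not give the cells' strain, passage or embryo age.

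AP-1 proteins hold each other through a leucine zipper and grip DNA with the basic region beside it. Jun proteins can pair with themselves, whereas Fos proteins need a partner, most often a Jun protein. Fos, Fosb, Jun and Junb belong to the immediate early genes, which serum, growth factors and stress switch on briefly in fibroblasts. Fosl1 and Fosl2 usually follow later and last longer, and Jund is present at a steadier level. MAP kinases raise the transcription of several of these genes and modify their proteins, so transcript levels alone do not give AP-1 activity.

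The stretches before the transcript starts of Fos, Fosb, Jun and Junb are shown because these 4 genes hold letters of the cyclic AMP response element (CRE) or a close variant. RefSeq sequences on GRCm38.p6 were found for 7 of the 8 members, all but Fosl1. Each line gives the 150 bases just before the start, 5′ to 3′ on the gene's strand, with every match to a searched motif in capitals. The Fos stretch is chr12:85473740-85473889 on the plus strand, that of Fosb chr7:19310046-19310195 on the minus strand, that of Jun chr4:95052223-95052372 on the minus strand and that of Junb chr8:84978749-84978898 on the minus strand.
Fos: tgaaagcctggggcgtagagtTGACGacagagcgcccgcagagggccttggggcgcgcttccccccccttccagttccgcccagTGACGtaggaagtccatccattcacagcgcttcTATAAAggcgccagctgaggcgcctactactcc
Fosb: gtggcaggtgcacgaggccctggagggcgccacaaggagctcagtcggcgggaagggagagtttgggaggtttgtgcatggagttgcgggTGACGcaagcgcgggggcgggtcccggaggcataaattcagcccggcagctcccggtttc
Jun: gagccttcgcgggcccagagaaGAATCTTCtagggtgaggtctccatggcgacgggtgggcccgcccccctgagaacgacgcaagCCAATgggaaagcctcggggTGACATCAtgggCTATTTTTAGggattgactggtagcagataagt
Junb: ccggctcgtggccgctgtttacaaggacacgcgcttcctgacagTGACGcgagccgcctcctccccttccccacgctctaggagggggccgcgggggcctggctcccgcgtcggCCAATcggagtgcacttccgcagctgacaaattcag

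Of the 8 transcripts, Fosl1 was the only member at least 2-fold higher with celastrol, and none was 2-fold lower. Among all detected genes, the share at least 2-fold higher was 1.88% and the share lower by as much was 0.662%, and the members' count rests on Fosl1 alone. Values above 0 were seen for 6 of the 8 members, against 48.1% of detected genes, and values below 0 for 2 (Jun and Jund), against 51.9%. The median log2 difference of the members was 0.37, and that of all 13902 detected genes was -0.01. A gene counted as detected when a value exceeded 5.73 on the log2 scale, the level under which 95% of the values of 1210 odorant and pheromone receptor probe sets lay, since fibroblasts are not expected to express these receptors. All 8 members exceeded this limit in both arrays, by 0.86 or more. With 1 array per condition there is no spread between cultures, so no difference has a replicate check or a p-value. Effects of the treatment cannot be told apart from those of the single culture or array, nor can a lower share of expressing cells be told apart from less RNA per cell. As the nearest measure of scatter, differences of the receptor probe sets ran from -0.42 to 0.41 over their central 95%, and those of the detected genes from -0.71 to 0.91. Of the 1210 receptor probe sets, 2 passed the 2-fold line on the upper side and 0 on the lower. Most receptor values lay under the detection limit, near background, where RMA understates differences. The receptor range may therefore be too narrow for members well above the limit. Of the members, 3 (Fosl1, Fosb and Batf3) lay outside the first range and only Fosl1 outside the second. Leaving the first range was not rare. Among detected genes, 17.6% lay as far from 0 as Batf3 or farther, 11.4% as far as Fosb and 1.42% as far as Fosl1.

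**Figure D1:**
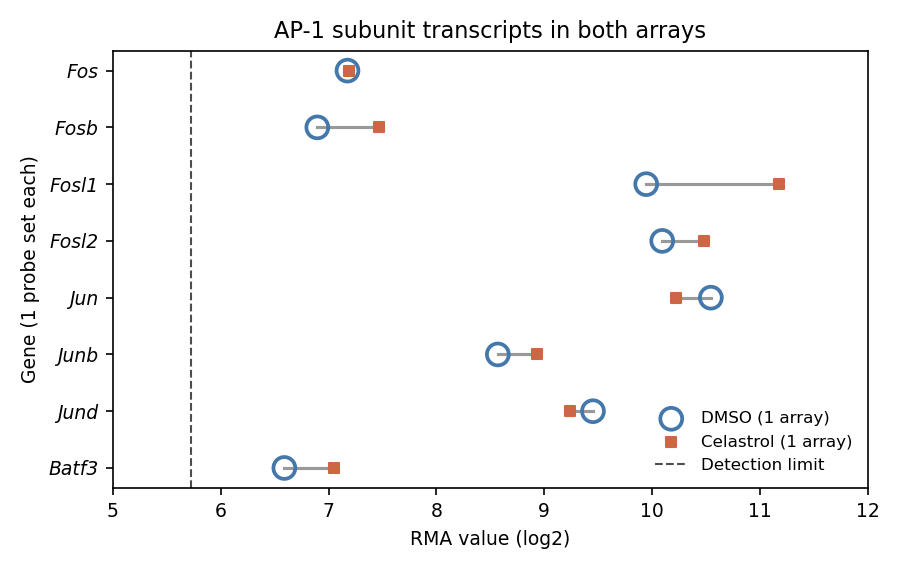
RMA values on the log2 scale (horizontal axis) of the 8 AP-1 genes (vertical axis), with an open circle for the DMSO array, a filled square for the celastrol array and a dashed line at the detection limit of 5.73. The symbols of Fosl1 are farthest apart, those of Fos coincide, and Jun and Jund are the genes with the square to the left; levels of different genes cannot be ranked, since each probe set responds differently.

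Within the Fos family all 4 differences were above 0, but they ran from 0.02 to 1.23. Fosl1, which encodes FRA-1, a Fos protein without the strong activation domain of c-Fos, had a value of 9.95 with DMSO and 11.17 with celastrol (probe set 10460585). The celastrol array was thus the higher by 1.23 on the log2 scale, a 2.34-fold difference. Its difference ranked 145 among the 13902 detected genes, and 1.04% of them had a difference as high or higher. It exceeded that of the next member, Fosb, by 0.65.

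Fosb, whose product is a close relative of c-Fos, had a value of 6.90 with DMSO and 7.47 with celastrol (probe set 10560481). The celastrol array was higher by 0.57, or 1.49-fold, and 6.48% of detected genes reached as high. Fosb also gives rise to a shortened protein by splicing, and the single probe set does not separate the forms. Fosl2, which encodes FRA-2, stood at 10.09 with DMSO and 10.48 with celastrol (probe set 10520862), a difference of 0.39 or 1.31-fold. That value lay inside the receptor range, and 11.8% of detected genes reached as high.

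Fos, the founding immediate early gene of the family, had a value of 7.18 with DMSO and 7.19 with celastrol (probe set 10397346). Both arrays gave nearly the same value, a difference of 0.02, and 94.9% of detected genes lay farther from 0 or equally far. The difference of Fosl1 exceeded that of Fos by 1.21 on the log2 scale. Fos responses to stimulation are short-lived, and only the time of 7 h was measured.

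The Jun family did not share a direction. Jun, the main partner of Fos proteins, had a value of 10.55 with DMSO and 10.22 with celastrol (probe set 10514466). The celastrol array was the lower, by 1.25-fold (-0.32), the lowest difference among the members. Among detected genes, 15.9% were as low or lower. Jund, often a brake on fibroblast growth, stood at 9.45 with DMSO and 9.24 with celastrol (probe set 10572456), a difference of -0.21, and 25.5% of detected genes were as low or lower. Junb, which can oppose Jun in growth control, went the other way, from 8.57 with DMSO to 8.93 with celastrol (probe set 10580282), a difference of 0.36 or 1.28-fold. All 3 Jun family values lay inside the range of the receptor probe sets.

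Batf3 encodes a short protein with a zipper and basic region but no activation domain, best known from dendritic cells. Its value was 6.59 with DMSO and 7.05 with celastrol (probe set 10352717), so the celastrol array was higher by 0.46 or 1.38-fold. Among detected genes, 9.20% reached as high. The DMSO value of Batf3 was the closest of the members to the detection limit, where RMA tends to compress differences.

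**Figure D2:**
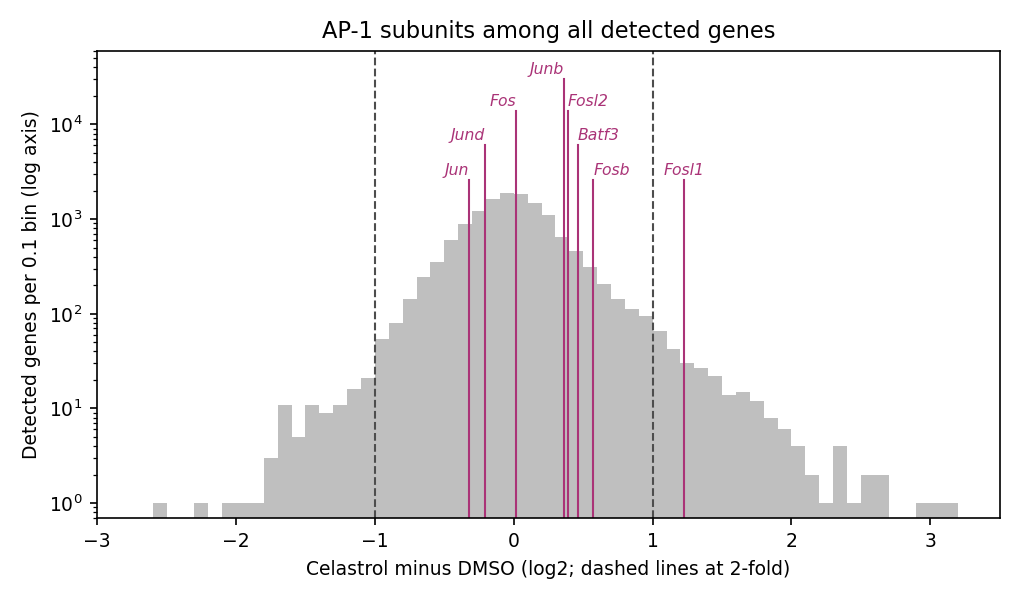
Number of detected genes per 0.1 bin of the log2 difference, celastrol minus DMSO (grey bars, log axis), with a vertical line at each AP-1 gene and dashed lines at 2-fold. Fosl1 at 1.23 is the only member beyond a dashed line, and the other 7 lie between -0.32 and 0.57.

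The nearest protein-coding genes were read beside the members, by gene order in RefSeq, because some AP-1 relatives lie next to each other in the mouse genome; they were chosen by position, after the members' values were known. Fos is followed by Jdp2, a repressor that pairs with Jun, and then by Batf. These 3 neighbouring bZIP genes gave differences of 0.02, 0.17 and -0.16, all close to 0. Batf3 lies 2 protein-coding genes from Atf3, and there the values were unlike, at 0.46 for Batf3 and 2.10 for Atf3, with 0.16 for Fam71a between them. Around Fosl1, the 4 nearest genes had differences of -0.71 (Fibp), -0.30 (Drap1), -0.22 (AI837181) and -0.02 (Ccdc85b). Only that of Fibp lay outside the receptor range of -0.42 to 0.41. The high difference of Fosl1 was thus not seen in these neighbours. Of 28 detected neighbours of all members, Atf3 was the only 1 at least 2-fold higher, and 0 were 2-fold lower.

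Other leucine zipper proteins compete for AP-1 partners, and among them Atf3 and Maff had the largest differences. Of 12 listed genes 11 were measured and detected, 9 above 0 and 2 below, with 2 at least 2-fold higher, 0 at least 2-fold lower and a median of 0.20. Atf3, a stress-induced factor that pairs with Jun proteins, had a value of 10.05 with DMSO and 12.15 with celastrol, a 4.28-fold difference. Maff, a small Maf protein, had values of 7.19 and 8.87, a 3.20-fold difference. Both differences were larger than that of Fosl1. The other small Maf genes also had higher values, Mafk by 0.83 and Mafg by 0.81. Maf, a large Maf factor, was at -0.56 and Batf at -0.16. The partners Atf2 (0.21) and Atf7 (0.20), which pair with Jun on CRE sites, lay near the median of this list.

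Genes of the MAP kinase cascade, which acts on AP-1 through ERK, JNK and p38, showed no common direction. Of 19 listed genes 15 were measured and detected, 8 above 0 and 7 below, none by 2-fold, and the median was 0.11. Map3k5, the stress kinase ASK1, was highest at 0.77, followed by Map2k1, the ERK-activating kinase MEK1, at 0.52. Mapk8, which encodes JNK1, a kinase that modifies Jun, was also at 0.52. Mapk7, the kinase ERK5, was lowest at -0.64, and Map3k11, an activator of JNK signalling, was at -0.33. These are transcript values, and the activity of the kinases was not measured.

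The factors that bind Fos and Jun promoters were also mixed. All 12 were measured and 11 detected, with 7 above 0, 4 below, none reaching 2-fold, and a median of 0.13. Srf, the serum response factor that binds the serum response element of Fos, had a value of 9.87 with DMSO and 8.90 with celastrol. It was 1.97-fold lower, just short of the 2-fold line. Mrtfb, a coactivator of Srf, was at -0.45. Crem, a CRE-binding factor with repressor forms, was the highest at 0.71, and Mef2d, of the family that binds the Jun promoter, was at 0.54. Among 7 regulators of AP-1 proteins, all detected, 3 were above 0 and 4 below, none by 2-fold, with a median of -0.08. Men1, whose product menin binds and restrains JunD, was at -0.72. Itch, a ubiquitin ligase for Jun proteins, was at -0.22, whereas the deacetylase gene Sirt1 was at 0.59 and Det1, of the ligase complex that degrades Jun, at 0.16.

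Genes known as AP-1 targets lay on both sides of 0. Of 20 listed genes 18 were measured and 17 detected, 8 of them above 0 and 9 below, with a median of -0.13. Past 2-fold, 2 were higher and 2 lower, Ccl2 and Il6, the last with a celastrol value under the detection limit. Hbegf, a ligand of the EGF receptor, had a value of 8.39 with DMSO and 10.36 with celastrol, a 3.90-fold difference. Mmp13, a collagenase, was 2.13-fold higher. Plaur, the urokinase receptor, was at 0.90, and Plau, urokinase itself, at 0.54, both classic targets of Fos-Jun pairs. Ptgs2, the inducible cyclooxygenase, was 1.95-fold higher. On the lower side, Ccl2 was at -1.58. Il6 had a value of 6.40 with DMSO and 5.15 with celastrol, a measured difference of -1.24. Its celastrol value was below the detection limit, so only a difference of at least 1.59-fold is given, which is short of 2-fold. Ptgs2, Ccl2 and Il6 are also NF-kB targets. Mmp9, a gelatinase, was at -0.84.

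The other immediate early genes mostly had higher values with celastrol, and the differences of Egr1 and Egr2 exceeded that of Fosl1. Of 15 listed genes, all detected, 13 were above 0 and 2 below, with 5 at least 2-fold higher, 0 at least 2-fold lower and a median of 0.70. Egr1, a zinc finger factor, had a value of 8.09 with DMSO and 9.74 with celastrol, a 3.14-fold difference. Egr2 was 2.87-fold higher and Ier3 2.23-fold higher. Dusp1, a MAP kinase phosphatase, was 2.04-fold higher and Zfp36, which promotes decay of unstable mRNAs, 2.01-fold higher, both close to the threshold. Ier2 was just under it, at 1.97-fold, and passed it under quantile normalization and with a lowess trend subtracted, which made 6 genes. Ccn1, a matricellular protein gene under Srf and YAP control, was the lowest at -0.78, and Nr4a1, an orphan nuclear receptor, was at -0.08. The difference of Fos, 0.02, lay under the median of this list.

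**Figure D3:**
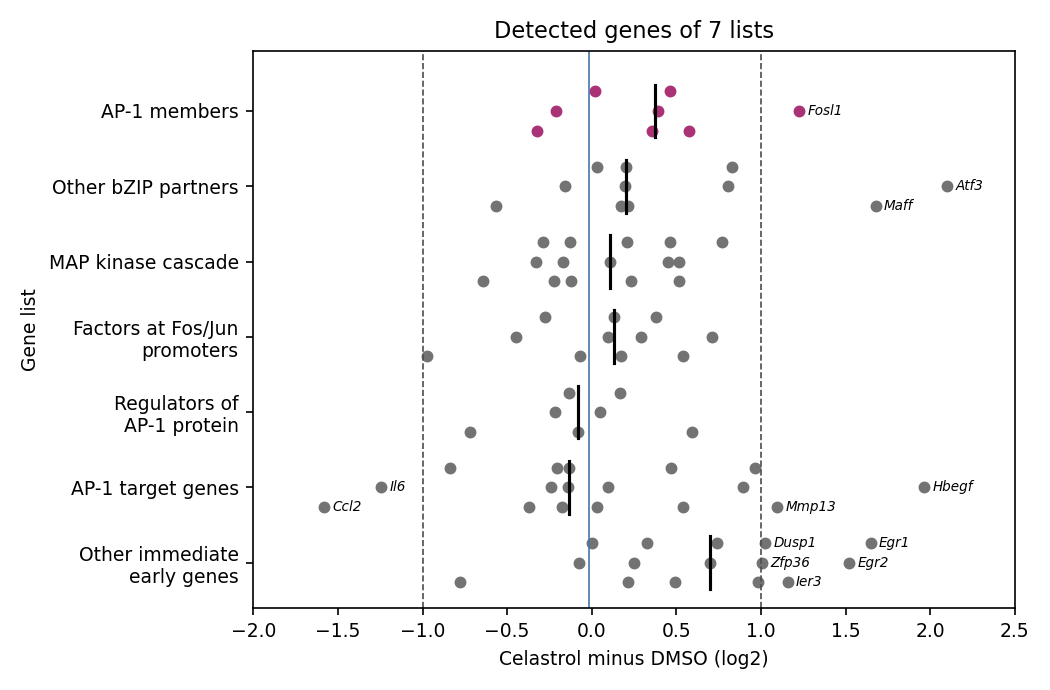
Log2 difference, celastrol minus DMSO (horizontal axis), of each detected gene in 7 lists (vertical axis), with a black bar at each list's median, dashed lines at 2-fold and a blue line at the median of all detected genes (-0.01). Points are spread vertically only for legibility, and the lists were chosen with earlier results of these data known. The immediate early list has the highest median (0.70), ahead of the AP-1 members (0.37), and the target list lies on both sides of 0.

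The promoter windows of 7 members, all but Fosl1, were searched for 11 motifs on both strands. Each ran from 250 bases before to 50 bases after the start. Matches were compared with all 32851 windows of that length in the RefSeq table. Positions are counted from the start, with 1 as its first base and -1 as the base before it. The CRE core TGACG, which is contained in the full CRE TGACGTCA, was present in 3 members (Fos, Fosb and Junb) and in 20.8% of all windows. Fos held it at -129 to -125 and -66 to -62, Fosb at -60 to -56 and Junb at -106 to -102. The log2 differences of these 3 genes were 0.02, 0.57 and 0.36, of which the values of Fos and Junb lay inside the receptor range. Among members with a window but no CRE core, differences ran from -0.32 (Jun) to 0.46 (Batf3). The full CRE was in 0 member windows and in 1.79% of all windows.

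Jun had the most kinds of match among the 7 members with a window. Its window held TGACATCA, a known variant of the AP-1 site in the Jun promoter, at -45 to -38, a sequence found in 3.62% of all windows. It also held a MEF2 box at -33 to -24, present in 0.557% of windows, and a CCAAT box at -65 to -61, whose letters CCAAT occurred in 37.4% of windows and also in Junb. The letters GAANNTTC, an inverted repeat of the heat shock element unit, were found in Jun at -128 to -121 and in Fosl2 at -244 to -237, against 7.86% of all windows. The log2 differences of Jun and Fosl2, -0.32 and 0.39, were of opposite sign, both inside the receptor range. The letters TATAAA were found in Fos at -33 to -28 and in Junb at 1 to 6, against 13.6% of windows.

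Fosl1 had no window and was not searched. None of the 7 member windows held the AP-1 site TGACTCA (5.20% of all windows) or the antioxidant response core TGACNNNGC (12.4%), which can overlap TGACG. Nor did any hold the ATF4 composite site TGATGNAAT (0.965%) or the CArG box bound by Srf (1.63%). These letters are only absent from this window, and elements farther away were not searched. The Batf3 and Jund windows held no match to any of the 11 motifs. Their GC contents differed, at 75.7% for Batf3 and 46.7% for Jund, beside a median of 52.7% over all windows. Jund was the only member under that median, since Fos, Jun, Fosl2, Junb and Fosb ran from 58.7% (Fos) to 68.3% (Fosb). The shares of all windows given for the motifs were not matched for GC content.

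**Figure D4:**
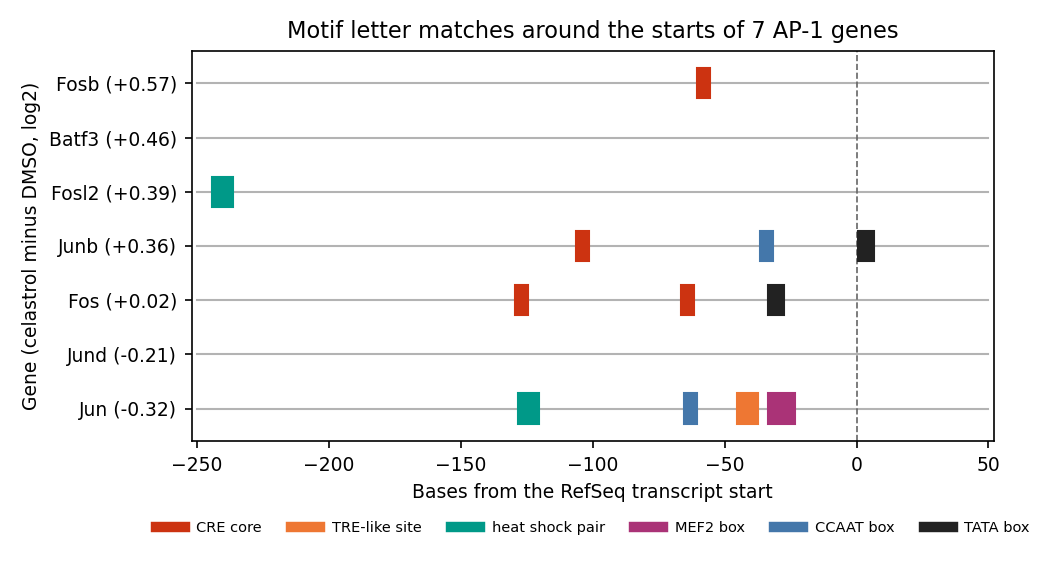
Positions of motif letter matches (coloured boxes) from 250 bases before to 50 bases after the RefSeq transcript start (dashed line) in the 7 AP-1 genes with a window, ordered by their log2 difference, which is given in brackets. The CRE core (red) lies before Fosb, Junb and Fos, and Jun has 4 boxes. Batf3 (0.46) and Jund (-0.21) have no box, and a link between motifs and differences was not tested.

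The cells' identity was read from markers. All 7 fibroblast markers exceeded the detection limit in both arrays, among them Fn1 (fibronectin, 13.42 with DMSO and 13.47 with celastrol), Col1a1 (12.16 and 11.69), a collagen chain, and Thy1 (6.19 and 6.02), a surface marker of many fibroblasts. Of 5 macrophage markers 2 exceeded the limit in each array, Cd68, a lysosomal protein, at 6.86 with DMSO and 8.33 with celastrol, and Csf1r at 5.99 and 6.25, while Adgre1 and Fcgr1 were under it in both. Their mean log2 value was 5.69 with DMSO and 6.05 with celastrol. Endothelial markers exceeded the limit in 0 of 4 cases with DMSO and 1 of 4 with celastrol, Cdh5 at 5.77, with Pecam1 at 5.32 and 5.69. Among 4 epithelial markers 3 exceeded it in each array, among them Krt8 (6.96 and 6.92) and Krt18 (6.19 and 6.20), and Epcam was under it. Among 4 muscle markers 2 exceeded it with DMSO and 3 with celastrol, among them Tnnt2 (8.34 and 9.21) and Myod1 (6.30 and 6.64). The part of other cells in the AP-1 values was not tested.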

How the data were processed

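Total RNA of both cultures was isolated with Trizol, column-purified and labelled with biotin by whole-transcript kits, per the labels. The authors deposited log2 values produced with RMA, per the submitters' processing notes, whose settings are unknown here, as is whether further arrays were normalized together with these. The log2 base was inferred from the values, which ran from 2.73 to 14.5 with medians of 6.33 and 6.35. RMA understates differences of probe sets near background.

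Of 35556 probe sets, 21797 named 1 gene in GEO's platform annotation, 1613 several and 12146 none, and only the first kind was used. A gene's value was its probe set with the highest mean. Symbols came from the GRCm38.p6 RefSeq table by Entrez identifier for 21698 probe sets. The difference was celastrol minus DMSO, called at 2-fold, and a fold is 2 raised to its size. No test was possible with 1 array per group.

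The members and gene lists were chosen with earlier results of these data known. Named were all members and, from each other list, up to 2 detected genes farthest from 0 on each side, those past 2-fold and the 2 brightest markers. Further genes (Mafk, Mafg, Atf2, Atf7, Mapk8, Plau, Plaur, Ptgs2, Mmp9, Ier2, Thy1, Adgre1, Fcgr1, Epcam and the neighbours) were named after their values were seen. Listed genes without a probe set of their own were not analysed here. The motifs were also chosen after the values were known. Alternatives were averaging a gene's probe sets, quantile normalization, subtraction of the median or of a lowess trend (fraction 0.3), other detection limits and fold thresholds of 1.5 and 3. The tools were pandas 2.3.3, numpy 2.4.6 and statsmodels 0.14.6 under Python 3.11.15, and the calculation was tested on simulated data.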

Additional observations from a re-analysis of the deposited data

How the results depend on the processing

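Of 78 recalculations, 77 kept their value within 0.21 on the log2 scale, the SD of the receptor differences, or kept their count, and 0 reversed a sign past 2-fold. The recalculations cover the difference of each AP-1 member, the 2-fold calls of the members and the medians of the lists. Many of them could not move. Each member has 1 probe set, so averaging probe sets returned the same values. All 8 members stayed detected under every detection limit, so their counts and median were fixed there. The median subtracted was only -0.01. The tally is therefore not a measure of how firm the differences are. Among the single genes of the other lists, Ier2 passed 2-fold under quantile normalization and lowess. The exception among the 78 was set by the threshold itself: at 3-fold, 0 members were higher. Across the other alternatives Fosl1 ran from 1.23 to 1.26, Jun from -0.32 to -0.29, Jund from -0.21 to -0.16, Fos from 0.02 to 0.05 and the members' median from 0.37 to 0.43. The alternatives for the 6 other lists were added after seeing the data, and their medians kept their sign. No paired analysis was possible because each group has 1 array. Each member rests on 1 probe set, scanner files were not used here, so saturation and local background were not examined, and RMA values give no depth.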
